A study of Mus musculus with 9 samples.

Results

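The complement components and receptors described here are the 9 genes C1qa, C1qb, C1qc, C4b, C3, C3ar1, C5ar1, Itgam and Itgb2, taken by gene symbol from a table of 54532 genes; all 9 passed the filter on low counts, as did 19782 genes in all. They were measured by RNA-seq in hippocampus of 9 juvenile mice, 5 given Ant-134 and 4 given Scr. Ant-134 is a locked nucleic acid antisense oligonucleotide against the microRNA miR-134 and Scr is its scrambled control, each injected into a lateral ventricle on postnatal day 21. Every mouse, the Scr controls included, carried the maternal Ube3a mutation (Ube3a m-/p+, a model of Angelman syndrome, derived from B6.129S7-Ube3a tm1alb/J and backcrossed to N4 on 129Sv/Ev), and every mouse was tested for sound-evoked (audiogenic) seizures on postnatal days 22, 24 and 26, with the hippocampus on the injected side taken 24 h after the last test. The comparison is therefore between Ant-134 and Scr in mutant mice that had been through seizure tests, and wild-type and untreated mice were not analysed here. The paper reported less severe audiogenic seizures after Ant-134 than after Scr in such mice. A direct effect of the antimiR and an effect of milder seizures thus cannot be told apart in these data. Each library is the homogenate of 1 saline-perfused mouse, and the sex of the mice was not recorded. In such bulk tissue, fewer cells of a type and less RNA per cell cannot be told apart.

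Complement is a cascade of proteins that marks surfaces for removal and draws in immune cells. C1q, assembled from A, B and C chains, binds the target and activates the proteases C1r and C1s; these cleave C4, the C4 and C2 fragments cleave C3, and C3 fragments stay on the surface while C3a and C5a diffuse away as signals. In the brain, C1q is made chiefly by microglia, C4 and C3 also by astrocytes and by cells of the brain's borders, and microglia carry the receptors, among them complement receptor 3, a dimer of the integrin chains Itgam (CD11b) and Itgb2 (CD18). In the developing brain, C1q and C3 mark synapses that microglia remove through this receptor.

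The C1q genes lie side by side in 18675 bases of mouse chromosome 4 (GRCm38), C1qb at 136880129 to 136886187, C1qc at 136889804 to 136893065 and C1qa at 136895917 to 136898803, all on the minus strand. C4b (chromosome 17, 34728380 to 34743882, minus) has a near copy, C4a, within 95085 bases, and C3 lies on the same chromosome at 57203970 to 57228136, minus. C3ar1 is at 122847138 to 122856161 on chromosome 6 (minus), C5ar1 at 16246743 to 16259540 and Itgam at 128062640 to 128118491 on chromosome 7 (minus and plus), and Itgb2 at 77530252 to 77565708 on chromosome 10 (plus).

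RefSeq promoter sequences (GRCm38.p6, 250 bases before to 50 after the start) were at hand for 6 of the 9 members. The promoters of C1qb (chr4:136886151-136886450, minus strand), C1qc (chr4:136892865-136893164, minus) and Itgam (chr7:128062390-128062689, plus) are shown because each holds GAGGAA, a core bound by the myeloid factor PU.1 and other ETS proteins, on one strand or the other; capitals mark it or its reverse complement.
C1qb: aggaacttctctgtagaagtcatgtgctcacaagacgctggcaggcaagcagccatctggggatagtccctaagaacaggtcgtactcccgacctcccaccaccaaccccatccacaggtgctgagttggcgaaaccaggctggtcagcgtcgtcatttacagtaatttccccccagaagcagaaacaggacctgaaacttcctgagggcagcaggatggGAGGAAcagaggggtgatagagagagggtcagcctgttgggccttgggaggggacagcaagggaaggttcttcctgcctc
C1qc: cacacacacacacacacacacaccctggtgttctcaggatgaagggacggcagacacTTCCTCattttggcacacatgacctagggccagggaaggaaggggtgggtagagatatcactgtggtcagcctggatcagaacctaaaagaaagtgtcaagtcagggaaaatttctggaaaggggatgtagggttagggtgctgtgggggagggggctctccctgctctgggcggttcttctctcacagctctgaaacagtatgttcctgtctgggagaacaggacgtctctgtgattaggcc
Itgam: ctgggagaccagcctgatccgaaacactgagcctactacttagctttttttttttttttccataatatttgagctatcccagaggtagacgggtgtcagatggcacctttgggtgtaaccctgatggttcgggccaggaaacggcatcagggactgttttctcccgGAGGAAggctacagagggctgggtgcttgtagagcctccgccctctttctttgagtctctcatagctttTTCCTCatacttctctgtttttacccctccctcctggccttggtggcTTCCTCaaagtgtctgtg
The match begins 30 bases before the start in C1qb and 193 before it in C1qc, and Itgam has 3 matches. GAGGAA is a common string, found on either strand in 28.3% of 32851 promoters of this length, and the matches are a description only. The promoter of C3 (chr17:57228087-57228386, minus) is shown because C3 varied most among the members; capitals mark the string TTGCNNAA, to which C/EBP factors bind, in 10.8% of promoters, and the TATA box string, TATAAA, in 13.6%.
C3: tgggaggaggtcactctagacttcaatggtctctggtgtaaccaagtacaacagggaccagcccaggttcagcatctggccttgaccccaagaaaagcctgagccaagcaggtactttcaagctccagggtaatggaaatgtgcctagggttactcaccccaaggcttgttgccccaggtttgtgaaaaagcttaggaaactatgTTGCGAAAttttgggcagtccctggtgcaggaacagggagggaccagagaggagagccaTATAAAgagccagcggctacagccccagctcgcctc
In C3 the C/EBP string begins 45 bases before the start, and TATAAA begins at base 15 after it, downstream of the start used. The promoters of C3ar1, C5ar1 and C3 held no GAGGAA. TGACGTCA, bound by CREB and in 1.79% of promoters, was searched on both strands as well and was in none of the 6; TATAAA was also in C3ar1. None of the printed matches overlaps another.

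The microRNA that Ant-134 targets is mmu-miR-134-5p (RefSeq, GRCm38.p6, chromosome 12, 109734145 to 109734166, plus strand), shown with its seed, bases 2 to 8, in capitals.
mmu-miR-134-5p: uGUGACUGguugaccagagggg
Of the 9 members, 8 had no match to the seed (CAGTCAC, or AGTCACA, which pairs with bases 2 to 7 and ends in A) in the longest annotated transcript end after the stop codon. Only C5ar1 had 1, at base 990 after the stop, in capitals here.
C5ar1: ttacctgctgAGTCACAtcactggcca
Such a match was found in 19.5% of 15267 tested genes with an annotated end, so it is common. Mature miR-134 is not measured by poly-A libraries, and its level was not analysed here.

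Per length of transcript, the C1q genes had the highest mean levels of the members. In FPKM (fragments per kilobase of transcript, scaled for library depth and averaged here over all 9 samples), C1qb was at 64.1, C1qa at 59.9, C1qc at 30.0, C4b at 15.8, C3 at 11.1, Itgb2 at 4.03, C3ar1 at 1.67, C5ar1 at 1.19 and Itgam at 1.07. Several neighbours in that order overlapped from sample to sample: C1qb ran from 59.3 to 73.5 and C1qa from 50.3 to 68.3, and C3 ran from 2.74 to 27.9, across the whole range of C4b, 11.3 to 23.0. C3ar1, C5ar1 and Itgam overlapped as well, whereas C1qc, 26.2 to 34.9, lay below every C1qa value and above every C4b value. The highest C3 value, in Scr sample 3, exceeded C1qc in Ant-134 samples 1, 2 and 4. The FPKM of C1qc also depends on the length used, and the deposited length of 1931 bases holds a further transcript. If every read came from the 1203-base coding transcript, C1qc would be at 48.2 FPKM. Reads were not counted per transcript, so the part of length in the C1qc level was not tested. The level of Itgam may be understated: 68.7% of its 5024 exonic bases also belong to Gm49368, a gene model overlapping it on the same strand, and how reads in shared bases were assigned is not given in the sources used here. Gm49368 itself had 0 to 2 counts per library. Of the 150-base windows of C4b, 8.26% are identical in C4a.

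**Figure D1:**
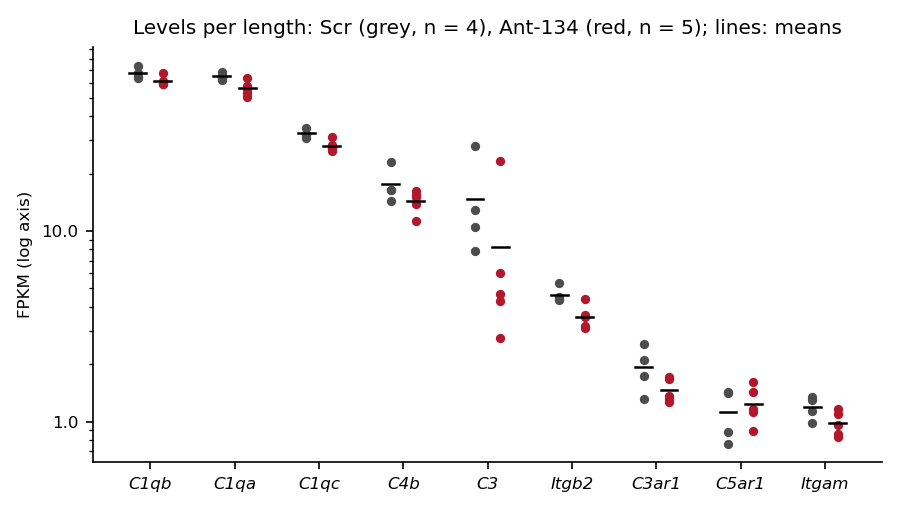
Level of each member per length in FPKM, on a log axis, with 1 point per sample (4 Scr in grey, 5 Ant-134 in red) and a line at each group's mean. C1qb and C1qa are highest, Itgam is lowest at a mean of 1.07 over all samples, and C3 has the widest spread, from 2.74 to 27.9.

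Against Scr, 5 of the 9 members were lower in Ant-134 at an unadjusted p below 0.05 in edgeR's quasi-likelihood test, C1qa, C1qb, C1qc, C3ar1 and Itgb2, and none was higher. Over all 19782 genes tested, 2.69% were called lower and 1.49% higher by that threshold. The log2 fold change was negative for 8 of the 9 members and for 48.8% of all genes, and its median was -0.28 over the members and 0.0026 over all genes. None of these calls passed Benjamini-Hochberg adjustment over all genes: the members' adjusted p ran from 0.909 to 0.998 in edgeR, and no gene of the table passed, the lowest adjusted p being 0.090. No member had every Ant-134 sample below every Scr sample, a pattern that 0.895% of all genes showed. The number of members called lower was 3 without the library Scr 1, which had the highest level of 7 members among the Scr mice, and stood between 4 and 6 without any other single library.

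**Figure D2:**
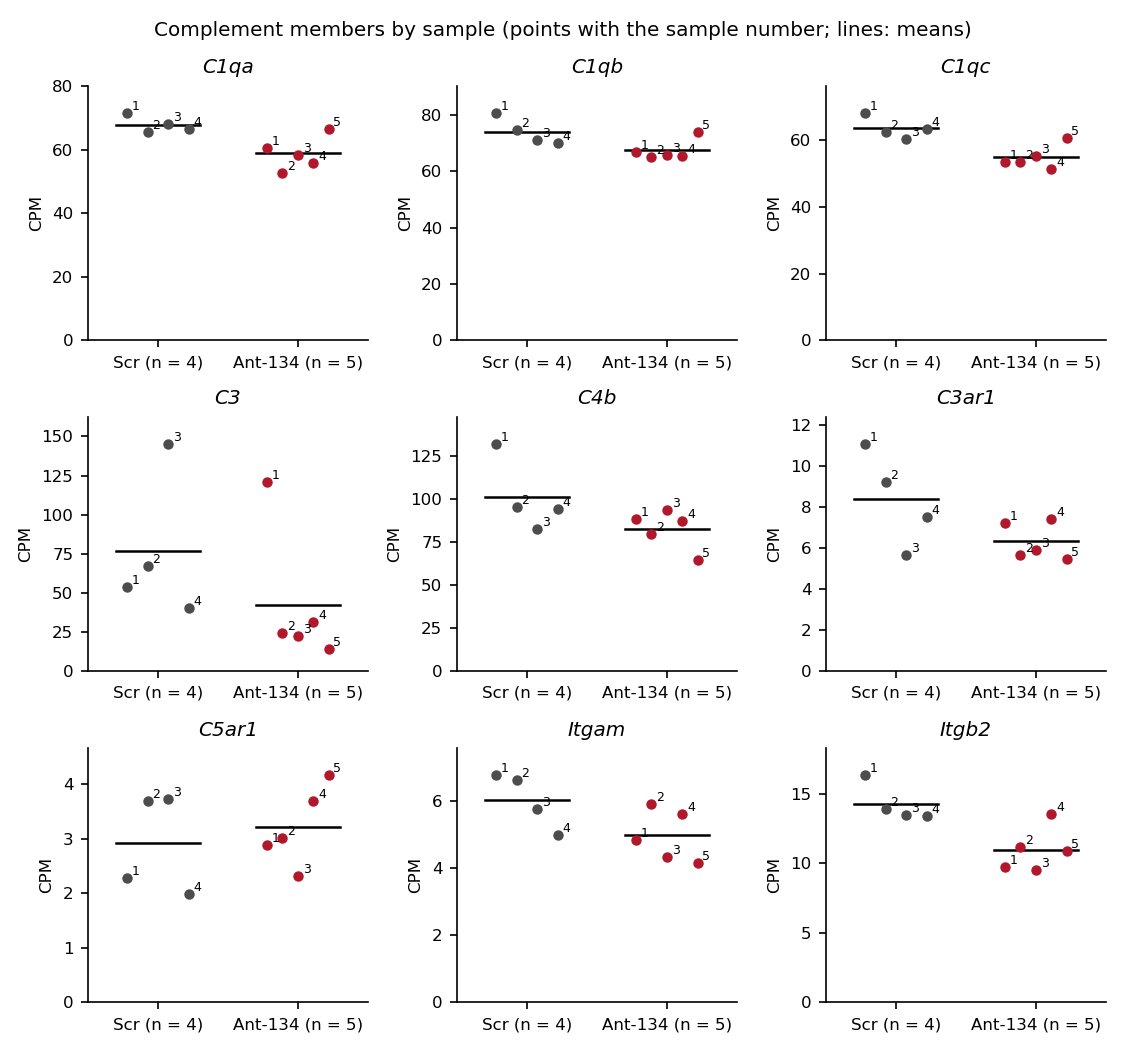
CPM (counts scaled for library depth, linear axes from 0) of the 9 members in each sample, Scr in grey (n = 4) and Ant-134 in red (n = 5), numbered by sample, with lines at the group means. The C1q genes overlap between groups only through Ant-134 sample 5 and Itgb2 only through Ant-134 sample 4, while C3 is split by Scr sample 3 and Ant-134 sample 1.

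C1qa, the A chain of C1q, was at 71.6, 65.7, 68.0 and 66.6 CPM (counts scaled for library depth) in the Scr samples 1 to 4 and at 60.6, 52.7, 58.5, 56.0 and 66.7 CPM in the Ant-134 samples 1 to 5. All 5 Ant-134 values were below the Scr mean and 4 were below the lowest Scr value, sample 5 being the exception. The mean fell from 68.0 ± 2.57 (SD, n = 4) to 58.9 ± 5.27 CPM (SD, n = 5), a ratio of 0.867. The log2 fold change was -0.21 with an SE of 0.060, at an unadjusted p of 0.0040 in edgeR (adjusted p 0.998), and an exact two-sided permutation test of the sample labels gave p = 0.032.

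C1qb, the B chain, was at 80.6, 74.8, 70.9 and 70.1 CPM in the Scr samples and at 66.8, 65.1, 65.7, 65.4 and 74.0 CPM in the Ant-134 samples. Ant-134 samples 1 to 4 lay within 2 CPM of each other and below every Scr sample, whereas sample 5 lay among the Scr values. The mean was 74.1 ± 4.78 (SD, n = 4) in Scr and 67.4 ± 3.73 CPM (SD, n = 5) in Ant-134, a ratio of 0.909. This was the smallest change among the called members, a log2 fold change of -0.14 (SE 0.053, unadjusted p = 0.021 and adjusted p = 0.998 in edgeR; exact permutation p = 0.040). The edgeR call was lost without Ant-134 sample 2 (unadjusted p = 0.052) and without Scr sample 1 (unadjusted p = 0.087).

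C1qc, the C chain, was at 67.9, 62.4, 60.1 and 63.2 CPM in the Scr samples and at 53.2, 53.3, 55.3, 51.2 and 60.6 CPM in the Ant-134 samples. Once more only Ant-134 sample 5 reached the Scr range. The mean fell from 63.4 ± 3.27 (SD, n = 4) to 54.7 ± 3.57 CPM (SD, n = 5), a ratio of 0.863, with a log2 fold change of -0.21 (SE 0.055, unadjusted p = 0.0015 and adjusted p = 0.909 in edgeR; exact permutation p = 0.024). C1qa and C1qc stayed below an unadjusted p of 0.05 in all 21 alternative fits.

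The chains of C1q are needed together in 1 protein, and their transcripts varied together over the 9 samples, which is given as a description because the samples share groups and libraries. Pearson's r of log2(CPM + 1) was 0.88 for C1qa with C1qb (Spearman's rho 0.88), 0.90 for C1qa with C1qc (rho 0.77) and 0.92 for C1qb with C1qc (rho 0.82). After the group means were taken out, r was 0.76, 0.76 and 0.86. The ratio of C1qb to C1qa in FPKM was 1.04 ± 0.047 (SD, n = 4) in Scr and 1.10 ± 0.053 (SD, n = 5) in Ant-134, that of C1qb to C1qc 2.07 ± 0.071 and 2.19 ± 0.061, and that of C1qa to C1qc 1.99 ± 0.073 and 2.00 ± 0.11, in the same order. These ratios were not tested. Summed, C1q was at 199 to 220 CPM in Scr and 171 to 201 CPM in Ant-134.

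C4b, the component that C1s cleaves, was at 132, 95.2, 83.0 and 94.2 CPM in the Scr samples and at 88.8, 79.7, 93.7, 87.3 and 64.9 CPM in the Ant-134 samples. All 5 Ant-134 values were below the Scr mean, but 3 were above the lowest Scr value, and Scr sample 1 stood well above the rest. The mean was 101 ± 21.3 (SD, n = 4) in Scr and 82.9 ± 11.3 CPM (SD, n = 5) in Ant-134. The log2 fold change of -0.29 (SE 0.15) did not reach the threshold (unadjusted p = 0.101 and adjusted p = 0.998 in edgeR; exact permutation p = 0.119), and it was -0.14 without Scr sample 1 and -0.37 (unadjusted p = 0.044) without Scr sample 3. In the 6 libraries with Y-linked reads (a split described with C3) it was -0.43 (unadjusted p = 0.076), while in the other 3 the Ant-134 libraries, at 88.8 and 87.3 CPM, were above the Scr library, at 83.0 CPM. C4a, its near copy, had a higher mean in Ant-134, at 4.29 ± 0.457 CPM in Scr (SD, n = 4) and 4.96 ± 0.257 in Ant-134 (SD, n = 5; log2 fold change 0.21, SE 0.12, unadjusted p = 0.095 in edgeR; exact permutation p = 0.040). All 5 Ant-134 values of C4a were above the Scr mean, the groups overlapped, and the tests fell on opposite sides of the threshold.

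C3, on which the pathways of complement converge, varied more than any other member, 10.2-fold between its highest and lowest sample. It was at 54.1, 67.1, 145 and 40.8 CPM in the Scr samples and at 121, 24.4, 22.4, 31.4 and 14.2 CPM in the Ant-134 samples. Ant-134 samples 2 to 5 were below every Scr sample, while Ant-134 sample 1 was above all Scr samples but the third. The mean was 76.8 ± 46.8 (SD, n = 4) in Scr and 42.6 ± 44.1 CPM (SD, n = 5) in Ant-134, and the log2 fold change of -0.85 (SE 0.72) did not reach the threshold (unadjusted p = 0.279 and adjusted p = 0.998 in edgeR; exact permutation p = 0.151).

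The size of the C3 difference turned on those libraries. It was -1.73 on the log2 scale (unadjusted p = 0.011 in edgeR) without Ant-134 sample 1 and -0.34 (unadjusted p = 0.666) without Scr sample 3. The same pair of libraries had the highest summed level of the 10 choroid plexus genes, 2627 CPM in Ant-134 sample 1 and 2057 in Scr sample 3 against 71.5 to 1098 in the other 7. The choroid plexus, the ventricle's secretory epithelium, lies against the hippocampus; the list's most abundant gene was Ttr (transthyretin), 5 of its 10 genes had a positive and 5 a negative log2 fold change, and none was called. Over the 9 samples r of C3 with the summed list, both as log2, was 0.73 (rho 0.60), and 0.35 without the 2 samples farthest from the list's median. The same pair, with Ant-134 sample 4, also had almost no Y-linked reads, 0.352 to 1.21 CPM summed over 4 genes (Eif2s3y the most abundant) against 178 to 198 in the other 6. The part of choroid plexus RNA or of sex in the C3 level was not tested.

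Within the 6 libraries with Y-linked reads, C3 was at 54.1, 67.1 and 40.8 CPM in Scr and at 24.4, 22.4 and 14.2 CPM in Ant-134. The log2 fold change among these libraries was -1.41 (unadjusted p = 0.0045 and adjusted p = 0.486 in edgeR), in a fit chosen after the data were seen. The 3 other libraries, 1 Scr and 2 Ant-134, are too few for a test; C3 was at 145 CPM in the Scr library and at 121 and 31.4 CPM in the Ant-134 libraries. With the mean Y-linked level as a covariate over all 9, the log2 fold change was -1.24 (unadjusted p = 0.018 in edgeR), and without the 2 libraries highest in choroid plexus genes it was -1.23 (unadjusted p = 0.0070). The count of members called lower was 5 in the 6 libraries with Y-linked reads, 5 with the covariate and 7 without the 2 libraries. Over all genes, 629, 641 and 556 were called lower in these fits, in the same order, against 533 in the main fit. C3 took the place of C1qb in the first and of C3ar1 in the second, and C3 and C4b joined the 5 in the third.

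**Figure D3:**
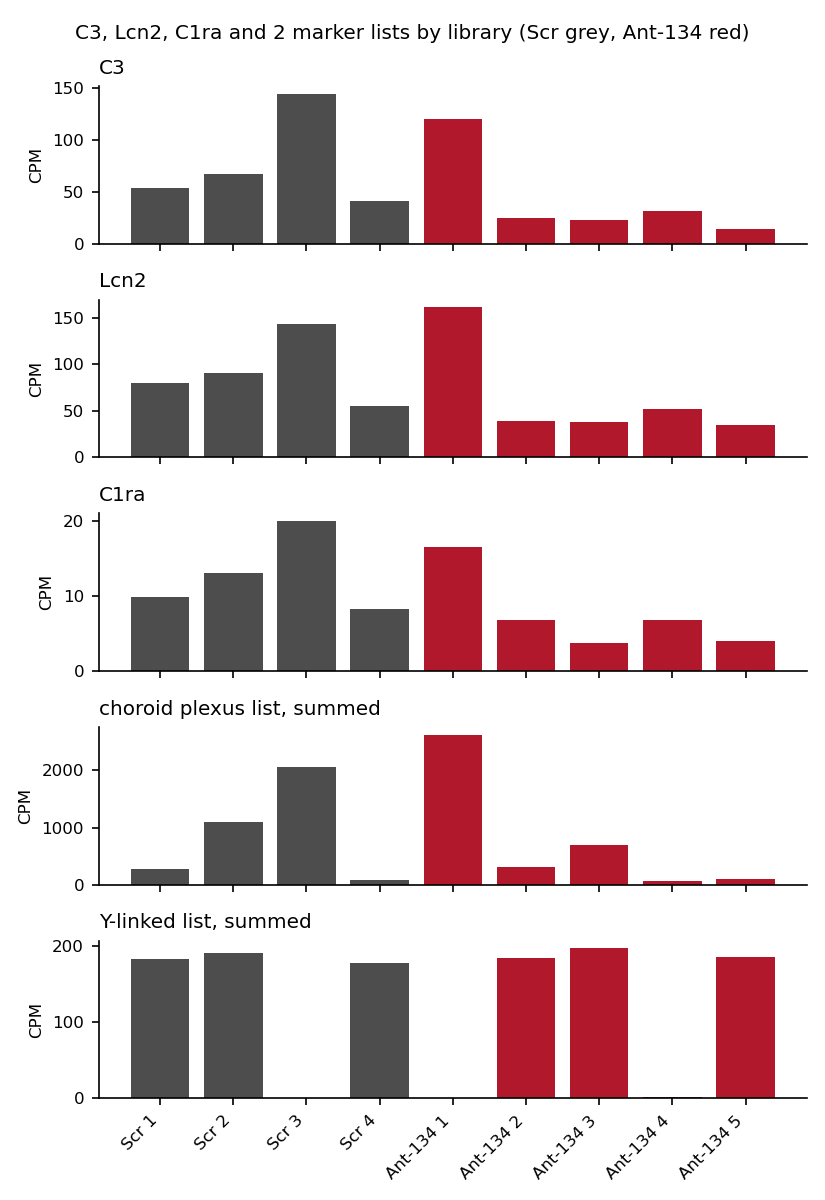
CPM in each library (linear axes from 0; Scr grey, Ant-134 red) of C3, of Lcn2 and C1ra, and summed over the choroid plexus and the Y-linked lists. Scr sample 3 and Ant-134 sample 1 are highest in the first 4 panels and near 0 in the last.

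C3ar1, the receptor for the C3a fragment, was at 11.1, 9.22, 5.69 and 7.53 CPM in the Scr samples and at 7.25, 5.69, 5.91, 7.43 and 5.46 CPM in the Ant-134 samples. All 5 Ant-134 values were below the Scr mean, but only 1 was below the lowest Scr value. The mean was 8.38 ± 2.30 (SD, n = 4) in Scr and 6.35 ± 0.923 CPM (SD, n = 5) in Ant-134, a ratio of 0.758. The log2 fold change of -0.40 (SE 0.17) was called by edgeR (unadjusted p = 0.035, adjusted p = 0.998) and not by the exact permutation test (p = 0.151), and it was -0.24 (unadjusted p = 0.157 in edgeR) without Scr sample 1. Leaving out any of Ant-134 samples 2, 3 and 5 or Scr sample 2 also ended the call, and 11 of the 21 alternative fits kept it. In the 6 libraries with Y-linked reads, C3ar1 was at 5.46 to 5.91 CPM in Ant-134 and at 7.53 to 11.1 in Scr. The log2 fold change there was -0.70 (unadjusted p = 0.00059 and adjusted p = 0.178 in edgeR), in the same fit chosen after the data were seen. In the 3 others the order was the opposite, with 7.25 and 7.43 CPM in the Ant-134 libraries and 5.69 in the Scr library, too few for a test. Over the 9 samples C3ar1 followed C4b, with r = 0.85 and rho = 0.92, and r = 0.78 after the group means were taken out.

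C5ar1, the receptor for C5a, was at 2.29, 3.69, 3.73 and 1.99 CPM in the Scr samples and at 2.89, 3.01, 2.31, 3.70 and 4.17 CPM in the Ant-134 samples. The groups overlapped almost entirely, with means of 2.92 ± 0.913 (SD, n = 4) and 3.22 ± 0.725 CPM (SD, n = 5). Its log2 fold change, 0.13 (SE 0.22), was the only positive one among the members and did not pass the test (unadjusted p = 0.548 in edgeR; exact permutation p = 0.532). It rested on 65 to 156 counts per library, the fewest of any member.

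Itgb2, the beta chain of complement receptor 3 and of the other leukocyte integrins, was at 16.3, 13.9, 13.5 and 13.4 CPM in the Scr samples and at 9.72, 11.1, 9.54, 13.5 and 10.9 CPM in the Ant-134 samples. The groups met only at Ant-134 sample 4, which lay just above the lower Scr values. The mean fell from 14.3 ± 1.39 (SD, n = 4) to 11.0 ± 1.60 CPM (SD, n = 5), a ratio of 0.768. With a log2 fold change of -0.38 (SE 0.10, unadjusted p = 0.0026 and adjusted p = 0.987 in edgeR; exact permutation p = 0.032), Itgb2 stayed below an unadjusted p of 0.05 in all 21 alternative fits, between -0.47 and -0.31.

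Itgam, the alpha chain of the same receptor, was at 6.77, 6.62, 5.78 and 4.98 CPM in the Scr samples and at 4.84, 5.93, 4.34, 5.60 and 4.17 CPM in the Ant-134 samples. All 5 Ant-134 values were below the Scr mean and 3 were below the lowest Scr value. The mean was 6.04 ± 0.829 (SD, n = 4) in Scr and 4.98 ± 0.768 CPM (SD, n = 5) in Ant-134, and the log2 fold change of -0.28 (SE 0.14) fell short of the threshold (unadjusted p = 0.063 and adjusted p = 0.998 in edgeR; exact permutation p = 0.103). It was called by edgeR without Ant-134 sample 2 (unadjusted p = 0.028), Ant-134 sample 4 (unadjusted p = 0.045) or Scr sample 4 (unadjusted p = 0.025). The chains of the receptor varied together, with r = 0.78 and rho = 0.83 over the 9 samples, and Itgb2 was 3.10 to 4.43 times as high as Itgam in FPKM in every sample, a ratio that the shared bases of Itgam enter.

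The rest of the cascade was read from a list of 55 further complement genes in 6 groups, 43 of them tested: 7 were called lower, 1 was called higher, and their median log2 fold change was -0.02, against 2.69% and 1.49% of all genes called and a median of 0.0026. The 12 not tested, C1rb, Mbl1, Mbl2, Fcnb, Colec10, Cfd, C6, C8a, C8b, C9, Cd55b and Vsig4, were too low for the filter, C9 and Vsig4 having no count in any library. The calls lay in 4 of the 6 groups.

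Among the proteases and pattern recognition proteins that start the cascade, 2 of 8 tested genes were called lower by edgeR, neither of which passed the exact permutation test. C1s1, the protease of the C1 complex that cleaves C4, was at 5.52 ± 1.15 CPM in Scr (SD, n = 4) and 3.58 ± 1.43 in Ant-134 (SD, n = 5; log2 fold change -0.62, SE 0.26, unadjusted p = 0.034 in edgeR; exact permutation p = 0.071), and Colec12, a scavenger receptor collectin, went from 17.0 ± 1.10 to 12.9 ± 3.14 CPM (-0.40, SE 0.15, unadjusted p = 0.021; exact permutation p = 0.063). C1ra, its partner protease C1r, was at 12.8 ± 5.22 and 7.61 ± 5.23 CPM and was not called (-0.75, SE 0.50, unadjusted p = 0.173). The second mouse copies were rare, C1s2 at 0.555 ± 0.167 and 0.654 ± 0.263 CPM and C1rb at no more than 0.356 CPM in any library.

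No gene was called by edgeR among the 4 tested of C2, C4a and the alternative pathway, whose most abundant gene was Cfp (properdin, which stabilises the C3 convertase; log2 fold change 0.04, SE 0.11), nor among the 3 tested of the terminal pathway, which forms the membrane pore, with C8g the most abundant (-0.16, SE 0.14). Hc, which encodes C5, was far lower than C8g, at 0.482 ± 0.127 CPM in Ant-134 (SD, n = 5) and 0.480 ± 0.203 in Scr (SD, n = 4), where 3 counts correspond to 0.0709 to 0.107 CPM.

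The soluble regulators held 2 lower genes of 7. Serping1, the C1 inhibitor, which blocks C1r and C1s, was at 25.0, 25.3, 22.5 and 23.3 CPM in the Scr samples and at 17.9, 21.9, 12.4, 16.2 and 18.4 CPM in the Ant-134 samples. Every Ant-134 value was below every Scr value, which was seen in no member, and the log2 fold change was -0.46 (SE 0.13, unadjusted p = 0.0034 and adjusted p = 0.987 in edgeR; exact permutation p = 0.016). Vtn (vitronectin, an inhibitor of the membrane pore) was at 68.3 ± 9.10 in Scr (SD, n = 4) and 57.2 ± 4.48 CPM in Ant-134 (SD, n = 5; -0.26, SE 0.083, unadjusted p = 0.0087; exact permutation p = 0.024). Clu (clusterin), the most abundant complement regulator at 297 FPKM, was not called (-0.04, SE 0.057).

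Of 12 tested membrane regulators, none was lower and 1 was higher, Sez6l2, a neuronal protein with complement control domains, at 309 ± 14.2 CPM in Scr (SD, n = 4) and 332 ± 7.68 in Ant-134 (SD, n = 5; log2 fold change 0.10, SE 0.043, unadjusted p = 0.029 in edgeR; exact permutation p = 0.024). Susd4, of the same list, passed only the exact permutation test (log2 fold change 0.06, unadjusted p = 0.147 in edgeR; exact permutation p = 0.048). Among 9 other receptors and integrin partners, 3 were called lower by edgeR. Itgax and Itgal, alpha chains that pair with Itgb2 in complement receptor 4 and in LFA-1, had log2 fold changes of -0.81 (SE 0.27, unadjusted p = 0.010; exact permutation p = 0.048) and -0.62 (SE 0.22, unadjusted p = 0.013; exact permutation p = 0.056), so that Itgal did not pass the second test; Itgal was highest among Ant-134 mice in sample 4, at 5.31 CPM, as was Itgb2. Cd93, named once as a C1q receptor and carried by endothelium, was at 13.3 ± 2.18 and 9.97 ± 1.84 CPM (-0.42, SE 0.14, unadjusted p = 0.0092; exact permutation p = 0.040). The C1q-like genes outside complement, synaptic organisers such as C1ql2 (-0.11, SE 0.11) that share only the C1q fold, had no call among 6 tested.

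**Figure D4:**
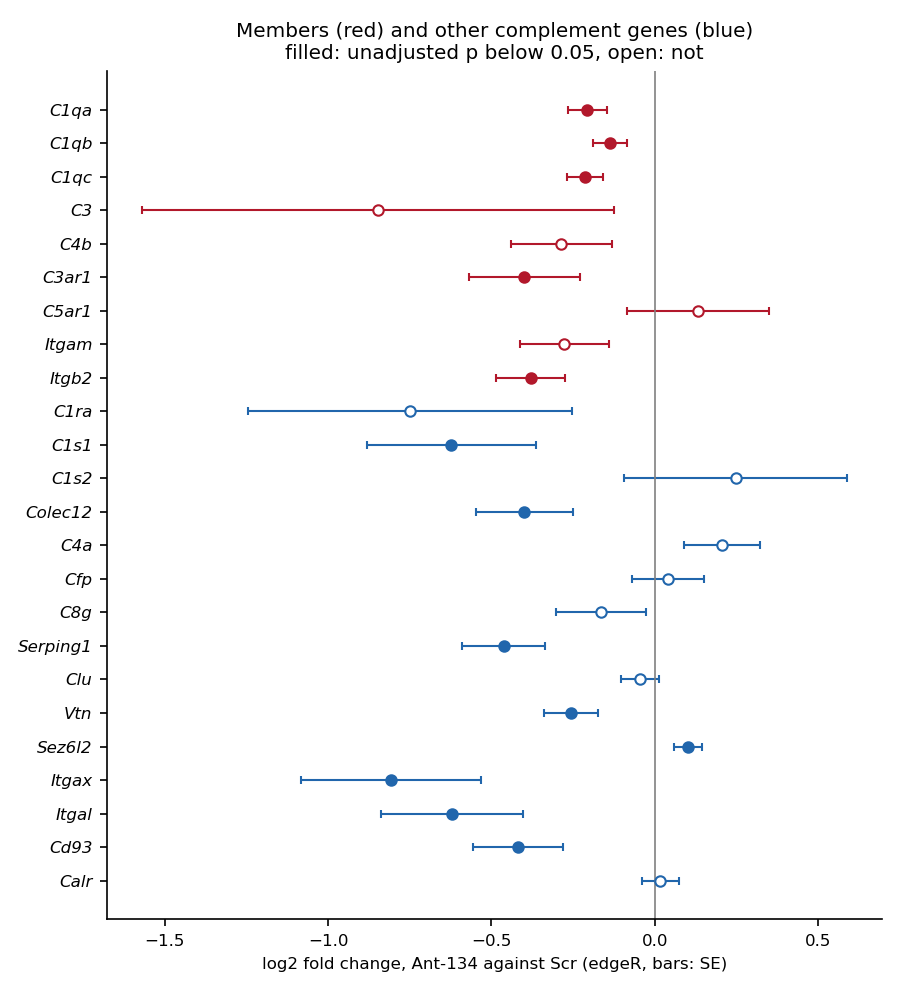
Log2 fold change of Ant-134 (n = 5) against Scr (n = 4) from edgeR, with SE bars, for the 9 members (red) and the named further complement genes (blue); filled points have an unadjusted p below 0.05. All but C5ar1 of the members lie left of 0, and C3 and C1ra have the widest bars, with an SE of 0.72 and 0.50.

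Microglia, which carry or make most of the members' products, were read from a list of their own. Of 18 microglia markers that are not members, 17 had a negative log2 fold change and 6 were called lower (Csf1r, Trem2, Aif1, Laptm5 and Selplg among them), none higher, with a median of -0.17; the most abundant by length, Ctss, was not called (-0.13, SE 0.092). The summed list was at 536 to 630 CPM in Scr and 485 to 533 in Ant-134, without overlap, and no marker was at 0. Relative to that sum within each library, C1q was at a log2 ratio of -1.47 ± 0.041 in Scr (SD, n = 4) and -1.48 ± 0.15 in Ant-134 (SD, n = 5). The ratio of Itgb2 was -5.32 ± 0.041 and -5.54 ± 0.16, that of C3ar1 -6.13 ± 0.32 and -6.32 ± 0.20, and that of C4b -2.52 ± 0.18 and -2.62 ± 0.20, in the same order. Itgam was at -6.57 ± 0.15 and -6.68 ± 0.17, C3 had the widest gap between means, at -3.06 ± 0.83 and -4.02 ± 1.18 with overlapping groups, and the mean of C5ar1 was higher in Ant-134, at -7.66 ± 0.51 and -7.32 ± 0.33. These ratios are descriptions, and their differences were not tested; the part of microglial number in the members' levels was not tested.

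**Figure D5:**
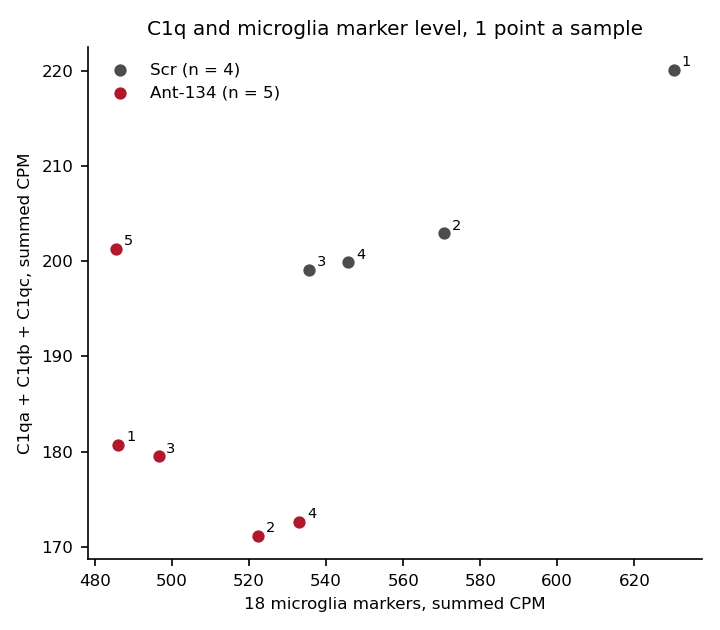
Summed CPM of C1qa, C1qb and C1qc against the summed CPM of 18 microglia markers, 1 point per sample (Scr grey, Ant-134 red), with axes that do not start at 0. Scr samples lie at 536 to 630 on the microglia axis and Ant-134 samples at 485 to 533, and Ant-134 sample 5 has the highest C1q of its group at the lowest marker sum.

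Across the 9 samples the members followed the summed microglia list to different degrees. Pearson's r of log2 levels was 0.92 for Itgb2, 0.85 for Itgam, 0.82 for C3ar1 and 0.80 for C4b, then 0.68 for C1qb, 0.67 for C1qc, 0.48 for C1qa, 0.26 for C3 and -0.28 for C5ar1. Without the 2 samples farthest from the list's median, r was 0.92 for Itgb2, 0.76 for Itgam, 0.74 for C1qb, 0.66 for C1qc, 0.52 for C3ar1, 0.44 for C1qa, 0.34 for C5ar1, 0.18 for C4b and 0.04 for C3. The relation of C4b thus rested on those samples, those of C3ar1 and C3 were weaker without them, and that of C5ar1 changed sign.

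Markers of other cell types moved to different degrees. All 10 meningeal fibroblast genes (Dcn the most abundant) had a negative log2 fold change and 7 were called lower, with summed levels of 172 to 239 CPM in Scr and 109 to 214 in Ant-134; all 10 endothelial genes (Cldn5) were negative and 2 were called, at 296 to 394 and 282 to 329 CPM. Of 9 border macrophage genes tested (Stab1), 5 were negative, 4 positive and 2 called lower, at 35.7 to 49.9 and 33.8 to 41.4 CPM, and of 6 monocyte genes (Plac8) 5 were negative and 1 was called lower. No gene was called among the 5 of 10 neutrophil (S100a9) and 3 of 10 T and NK cell (Trbc2) markers that passed the filter on low counts, nor among 10 astrocyte (Gfap), 10 oligodendrocyte and 5 erythrocyte (Hbb-bs) markers, although all 5 erythrocyte genes were positive, with 69.0 to 403 CPM in Ant-134 and 44.0 to 91.7 in Scr. Hippocampal neuron genes (Neurod6 the most abundant) summed to 1195 to 1494 CPM, with no other brain region to set this against. Of these 10 genes, 9 had a positive log2 fold change and 1 was called higher. All 10 general neuronal genes were positive and 2 were called higher, while the most abundant, Slc17a7, was not called. The part of these cell types in the members' levels was not tested.

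The genes most like the members across the 9 samples were sought among 12335 other genes with a mean of at least 5 CPM. Closest to the mean of the C1q genes were Ddx19a (r = 0.87), Ctsh (cathepsin H, 0.87), Nr2f6 (0.87), Spi1 (which encodes PU.1, 0.86) and Fgfr3 (on the astrocyte list, 0.86). With 9 samples and so many genes, values of r this high can arise by chance, and they were not tested. Of these, Ctsh was called lower (20.4 ± 1.37 CPM in Scr, SD, n = 4, and 17.4 ± 1.54 in Ant-134, SD, n = 5; log2 fold change -0.23, unadjusted p = 0.0087 in edgeR), and Spi1 was not (12.4 ± 1.27 and 10.6 ± 1.55 CPM; -0.22, SE 0.11, unadjusted p = 0.064). Without the 2 samples farthest from the C1q median, r was 0.93 for Ctsh and 0.71 for Nr2f6, the lowest of the 5.

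Closest to C3 were Lcn2 (lipocalin 2, a secreted acute phase protein; r = 0.98, rho = 0.98), C1ra (0.97, rho = 0.98) and Hspg2 (perlecan, of basement membranes and itself called lower at -0.37, unadjusted p = 0.042 in edgeR; 0.96, rho = 0.98), and without the 2 libraries farthest from the C3 median, Scr 3 and Ant-134 1, r was 0.96, 0.94 and 0.98. Lcn2 was at 79.5, 90.5, 143 and 55.2 CPM in the Scr samples and at 161, 38.7, 38.0, 52.2 and 35.0 CPM in the Ant-134 samples, nearly the order of C3. Closest to C4b were Gxylt1 (r = 0.94), Gatm (0.93) and Irf8 (an interferon regulatory factor of myeloid cells, 0.91), but r of Irf8 was -0.06 without Scr 1 and Ant-134 5, so that likeness rested on those libraries. These correlations are across samples that share their groups and are given as descriptions.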

How the data were processed

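Poly-A RNA-seq (paired reads of 150 bases) of 9 hippocampi was deposited by the authors as a table of gene counts (HISAT2 2.0.5, featureCounts 1.5.0-p3 per the submitters' processing notes, GRCm38; the strand setting is not given in the sources used here) and as FPKM values per gene, which the authors computed from those counts and gene lengths. Library totals were 28583298 to 41978113 counts. The counts as deposited were tested with edgeR 4.0.16 (TMM scaling, robust quasi-likelihood test, filterByExpr with a minimum count of 10) over all genes, Ant-134 against Scr; a gene was called at an unadjusted p below 0.05, the study's threshold, with Benjamini-Hochberg adjusted p beside it. CPM are counts scaled to library depth by TMM. Single members were also compared on log2(CPM + 1) by an exact two-sided permutation test of the sample labels, whose smallest p is 0.0079; these p-values are not adjusted. Each sample is 1 mouse, and the tests set the group difference against variation between mice, which edgeR moderates across all genes. Promoters and miR-134 are from RefSeq (GRCm38.p6), and transcripts from GENCODE (GRCm38). Named were all members, further complement genes that were called or, in a group without a call, the most abundant, C4a, C1ra, C1rb, C1s1 and C1s2, the genes most correlated with C1q (5), C3 (3) and C4b (3), and each marker list's most abundant gene (1 of these and 1 called marker are not reported here); Hc and the called microglia markers were added after their values were seen. The members, lists and tests were chosen with earlier results of these data known. Alternatives were DESeq2 1.42.0, its size factors, other filters, limma 3.58.1 on log2 FPKM, a replicate block, a Y-linked covariate and leaving out each sample. The edgeR, DESeq2 and limma fits were tested on simulated counts with known changes. Those changes were larger than that of any member, so recovery of changes as small as the members' was not tested.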

Additional observations from a re-analysis of the deposited data

Results flagged for a closer look

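Single samples were compared with the rest of their group by Dixon's ratio (the gap to the nearest sample over the group's range) in 48 groups of values of the named complement genes and 3 summed lists. Of these, 8 were past the 95% critical value, where chance flags about 1 group in 20, or 2.4 of 48; 3 of the 8 were members. C3 was at 121 CPM in Ant-134 sample 1 against 14.2 to 31.4 in the other Ant-134 samples. The same library had C1ra at 16.6 CPM against 3.81 to 6.81 and the choroid plexus list at 2627 CPM summed against 71.5 to 690.1. C1qb was at 74.0 CPM in Ant-134 sample 5 against 65.1 to 66.8 in the rest of its group. Itgb2 was at 16.3 CPM in Scr sample 1 against 13.4 to 13.9, with a ratio of 0.832 just above the critical 0.829. Itgal was at 5.31 CPM in Ant-134 sample 4 against 2.44 to 2.99, and Vtn at 81.9 CPM in Scr sample 2 against 62.2 to 64.8. C1rb, at 0.356 CPM in Ant-134 sample 3 against 0 to 0.0609, rests on a handful of reads. The cause of these values was not tested.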

How the results depend on the processing

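Over the alternatives, 181 of 207 values for single members kept their direction and side of the threshold, 14 lost the call, 11 gained it and 1 changed sign: C5ar1, never called, ran from -0.010 (without Scr 4) to 0.27 (without Scr 2) when single samples were left out. Leaving out each sample in turn gave 3 to 6 members called lower (3 without Scr 1) and 0 higher, 5 to 8 further complement genes lower and 0 to 2 higher, and 435 to 704 genes lower and 194 (without Scr 3) to 386 higher. Without a filter on low counts, 1211 genes were lower and 564 higher, and 2 further complement genes were higher. Limma on log2(FPKM + 1) called 633 genes lower and 450 higher, with a pseudocount of 0.1 630 lower and 471 higher, and without a filter 935 lower and 532 higher. The number of members lower was 4 in each. Without the 2 libraries highest in choroid plexus genes, 186 genes were higher, and in the 6 libraries with Y-linked reads no further complement gene was higher (0 of the tested); both were chosen after seeing the data. With a replicate block, 4 members and 5 further complement genes were lower and 0 higher, C3ar1 losing its call (unadjusted p = 0.055 in edgeR). Over all genes, 466 were lower and 342 higher in that fit. The numbers do not pair the samples, since the deviations of same-numbered samples from their group means had r of -0.11 to 0.0065 and 0 of 4 Ant-134 samples correlated best with their own number. With 65 to 390 counts per library, C3ar1, C5ar1 and Itgam are the members whose depth limits precision most. The causes of these shifts were not tested.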
